A study of Homo sapiens with 36 samples.

Results

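The binding sites of CTCF were compared between HEK293T cells that received small interfering RNA against MBD2 (siMBD2) and cells that received the control small interfering RNA (siNC). The members were all CTCF peaks of either condition on chromosomes 1 to 22 and X, with lines that share chromosome, start and end counted once, and overlapping peaks were joined into regions. This gave 38678 regions, of 54382 regions in the 6 peak lists of the series. Of these, 2426 held only siMBD2 peaks, 12672 held only siNC peaks and 23580 held both. A siNC peak is called kept when a siMBD2 peak overlaps it by at least 1 bp and missing otherwise, and a siMBD2 peak with no siNC overlap is called added. The rule takes no account of how strong a peak is.

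HEK293T is a human embryonic kidney cell line that carries a viral T antigen. Each of 5 knockdowns and siNC had 3 CTCF immunoprecipitates and 3 inputs, 36 samples in 12 groups. In both conditions compared here the cells differed by the transfected small interfering RNA alone, per the labels, which give no time after transfection. The deposited list of each condition pools its 3 replicates, so that no spread between replicates exists, no test between conditions was made, and the knockdown of MBD2 itself was not analysed here. Intervals in brackets are exact Clopper-Pearson 95% intervals, which cover counting error of peaks only. Positions are hg19, counted from 1.

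CTCF is a zinc-finger protein that binds a long DNA motif at insulators and at the anchors of chromatin loops, where it halts the cohesin ring, and methylation of CpG sites inside the motif can block its binding. MBD2 is a methyl-CpG-binding protein that brings the nucleosome remodelling and deacetylase complex NuRD to methylated DNA. MBD2 and MBD3 occupy the same position in NuRD and exclude each other, so that cells hold an MBD2 form and an MBD3 form of the complex.

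The siMBD2 list was shorter, narrower and sparser than the siNC list. It held 26087 peaks against 36270 in siNC. The median peak was 267 bp wide in siMBD2 and 304 bp in siNC, and the peaks covered 7.41 Mb in siMBD2 and 11.6 Mb in siNC. The median gap from a peak to the next was 55.3 kb in siMBD2 and 39.5 kb in siNC. Gaps of at most 5 kb made up 9.36% of siMBD2 gaps and 12.2% of siNC gaps, and gaps over 100 kb made up 32.7% in siMBD2 and 23.6% in siNC. Peaks with more than 1 summit numbered 351 in siMBD2 and 970 in siNC.

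Most siMBD2 peaks lay on siNC peaks, while many siNC peaks had no siMBD2 partner. Of the siMBD2 peaks, 9.30% were added (2426 of 26087, interval 8.95 to 9.66), and of the siNC peaks 34.9% were missing (12672 of 36270, interval 34.4 to 35.4). Near misses were few: 168 added peaks had a siNC peak within 1 kb and 459 missing peaks had a siMBD2 peak within 1 kb. Without those near misses the shares were 8.66% added and 33.7% missing. With lists cut to equal length, taking the peaks of smallest p in siNC, 19.5% were added and 19.8% missing. At equal length with mostly single partners the 2 shares must be nearly equal, so only their size is a measurement.

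The peaks nearest to the 1 bp limit had low folds. The missing peaks closest to a siMBD2 peak were chr3:12623754-12624308, 64 bp away, chr12:121139155-121139340, 99 bp away, and chr1:1717280-1717498, 120 bp away. The kept peaks with the least overlap were chr8:86824895-86825128 with 5 bp, chr10:1086893-1087212 with 8 bp and chr3:14183619-14183871 with 14 bp. Fold enrichment over local background, as the authors' peak caller gives it, was between 1.93 and 3.82 in siNC for these 6 peaks.

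Missing and kept peaks differed in how many fragments stood under them. The summit pileup, the number of fragments stacked at a summit, and the local background were recovered for each peak by solving the caller's fold and p together. The lowest background, a stand-in for sequencing depth, was 0.640 fragments in siMBD2 and 2.96 in siNC, a ratio of 0.216. The median pileup was 8 at added peaks and 22 at siMBD2 peaks on a siNC peak. In siNC the median pileup was 31 at missing peaks and 79 at kept peaks. Added and missing peaks were thus mostly the low peaks of their own lists.

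Across quintiles of pileup the shares fell steeply in both directions. Among siMBD2 peaks, 34.3% were added at a pileup of 5 to 13, 5.08% at 14 to 18, 1.65% at 19 to 24, 0.447% at 25 to 32 and 0.533% at 33 or more. Among siNC peaks, 80.7% were missing at a pileup of 11 to 30, 52.6% at 31 to 48, 26.7% at 49 to 71, 10.6% at 72 to 102 and 2.68% at 103 or more. The strongest siNC quintile thus held 194 missing peaks of 7246. When each siNC peak was weighted by how likely its pileup, thinned to the siMBD2 depth, was to be called, the share missing was 24.6%.

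**Figure D1:**
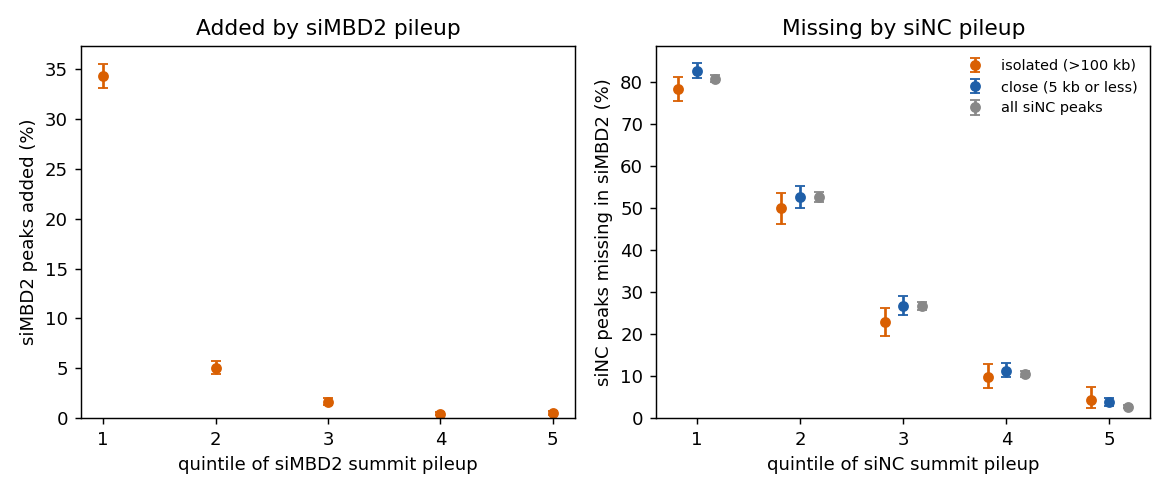
Left: share of siMBD2 peaks added (%) by quintile of siMBD2 summit pileup. Right: share of siNC peaks missing (%) by quintile of siNC summit pileup, for isolated peaks (nearest other siNC peak over 100 kb away), close peaks (at most 5 kb) and all peaks. Bars are exact 95% intervals of counting error. Both shares fall with pileup, to 0.533% added and 2.68% missing in the highest quintile, and isolated and close peaks of the same quintile lie close together.

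Added and missing peaks were also the narrow ones. The median width was 226 bp for added peaks and 271 bp for siMBD2 peaks on a siNC peak. In siNC it was 252 bp for missing and 327 bp for kept peaks. Of peaks up to 200 bp wide, 24.6% of those in siMBD2 were added and 76.7% of those in siNC were missing. Between 300 and 400 bp the shares were 3.56% added and 19.3% missing. The share missing was not lowest among ever wider peaks: it was 15.6% between 400 and 600 bp (interval 14.5 to 16.8), 27.9% between 600 and 1000 bp (24.4 to 31.7) and 15.9% above that (10.6 to 22.4). The median siNC pileup in these 3 classes was 90, 60 and 66, so the class with the highest share missing of the 3 also had the lowest pileup.

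**Figure D2:**
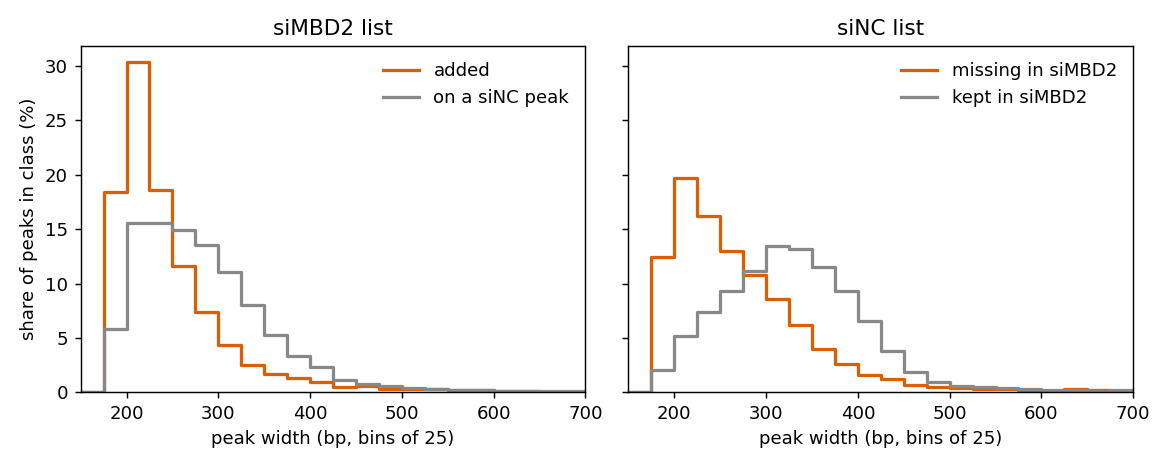
Share of peaks (%) by width in bins of 25 bp, drawn up to 700 bp, for the siMBD2 list (left) and the siNC list (right). Added siMBD2 peaks (median 226 bp) and missing siNC peaks (median 252 bp) lie to the left of shared ones (medians 271 and 327 bp).

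Where a peak was called in both lists, its summit hardly moved but the peak was usually narrower in siMBD2. The median distance between summits was 10 bp, and 95% lay within 44 bp. The width in siMBD2 was a median of 0.856 times that in siNC, with 5th and 95th percentiles of 0.553 and 1.3, and 17536 of 23598 kept peaks (74.3%) were narrower in siMBD2. In the strongest pileup quintile 79.9% were narrower, with a median ratio of 0.838. A siNC peak was split over at least 2 siMBD2 peaks in 78 cases, and a siMBD2 peak covered at least 2 siNC peaks in 17.

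The extremes of the width ratio were siNC peaks over 1 kb wide at one end, and mostly low-fold siNC peaks at the other. The kept peak that narrowed most, chr1:205684617-205686752, was 232 bp wide in siMBD2 and 2136 bp in siNC. It was followed by chrX:57418932-57421415, with 301 bp in siMBD2 and 2484 bp in siNC, and chr12:50156717-50158382, with 240 bp in siMBD2 and 1666 bp in siNC. The next were chr13:77558996-77561352 (ratio 0.161) and chr11:123468712-123470126 (ratio 0.162). In the other direction, 2 siNC peaks of 191 and 193 bp at chr2:92306728-92306918 and chr2:92307275-92307467 were covered by 1 siMBD2 peak of 1425 bp. The siNC peak chr16:30080169-30080408, 240 bp wide, shared 170 bp with a siMBD2 peak of 1415 bp whose summit was 1005 bp away. The last cases, chr10:42540568-42540766 and chr18:18518439-18518661, were 1139 and 1226 bp wide in siMBD2 and had siNC folds of only 1.86 and 1.97.

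Folds at shared peaks had a higher median in siMBD2 (6.79) than in siNC (5.65). The 5 kept siNC peaks of highest siNC fold, a choice that favours siNC, are given as a description. At chr8:62115006-62115322 the fold was 17.8 in siMBD2 and 26.1 in siNC, with pileups of 161 and 296. At chr2:139045464-139046435 it was 15.6 in siMBD2 and 23.1 in siNC, and the peak was 317 bp wide in siMBD2 and 972 bp in siNC. At chr2:34064953-34065306 it was 5.58 in siMBD2 and 22.9 in siNC, with a siMBD2 background of 7.25 and a siNC background of 6.56. At the typical kept peak of the strongest quintile the siMBD2 background was a median of 0.184 times that of siNC. All 5 peaks had a log2 background ratio 1.2 to 2.58 above that. The remaining folds were 7.15 in siMBD2 and 22.4 in siNC at chr12:94034221-94035090, and 12.1 in siMBD2 and 21.6 in siNC at chr21:26734516-26734876.

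Isolated peaks were missing more often than close ones over the whole list, but in most pileup quintiles they were missing slightly less often. Of isolated siNC peaks, over 100 kb from the nearest other siNC peak, 40.4% were missing (1196 of 2960, interval 38.6 to 42.2), and of close ones, within 5 kb of another, 35.8% (2878 of 8035, 34.8 to 36.9). Isolated peaks had a median pileup of 47.5 and close ones of 60. Within quintiles of pileup the order turned round in the first 4: the shares missing among isolated and close peaks were 78.3% and 82.6% in the lowest quintile, 49.9% and 52.6% in the next, 22.8% and 26.6% in the middle one and 9.74% and 11.3% in the fourth. The highest quintile gave 4.43% of isolated and 3.82% of close peaks, and in each quintile the intervals of isolated and close peaks overlapped.

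By distance to the nearest siNC peak, the share missing was highest at both ends. It was 42.6% up to 1 kb, 33.3% from 1 to 5 kb, 32.5% from 5 to 20 kb, 35.2% from 20 to 100 kb, 39.9% from 100 to 300 kb and 45.4% beyond. The median pileups were 48, 63, 63, 59, 48 and 40 in the same order, so the ends had the lowest pileups. Added shares were also higher at both ends: 12.7% of siMBD2 peaks within 1 kb of another siMBD2 peak and 16.8% of those over 300 kb from one were added, against 8.34% from 1 to 5 kb. The siMBD2 median pileups there were 22, 15 and 22, so at the near end the higher share did not go with a lower pileup. The typical added peak lay 20.4 kb from the nearest siNC peak and the typical missing peak 28.3 kb from the nearest siMBD2 peak.

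Most runs of missing peaks were short. The next siNC peak was also missing for 36.8% of missing peaks (interval 35.9 to 37.6) and for 34.0% of kept peaks (33.3 to 34.6). Of the 8013 runs of consecutive missing peaks, 5116 were single peaks and 175 held 5 or more. Where 2 neighbouring siNC peaks lay within 5 kb, both were kept in 43.5% of pairs, 1 of them in 40.8% and neither in 15.7%. Neither was kept in 12.0% of pairs 5 to 20 kb apart, 11.9% of those 20 to 100 kb apart and 14% of those further apart.

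The longest run of missing peaks lay in the imprinted region of chromosome 15 that is affected in Prader-Willi and Angelman syndromes. All 12 siNC peaks from 25583656 to 28451082, over 2867 kb, had no siMBD2 partner. They were low peaks, with siNC pileups from 17 to 47 and a median of 23.5. Of the whole siNC list, 80.7% were missing at a pileup up to 30, where 9 of the 12 lay, and 52.6% in the next quintile, where the other 3 lay. The single siMBD2 peak inside, chr15:26179093-26179325, was an added one with a pileup of 6. The SNRPN peak outside the run was kept and strong, at chr15:25154126-25154851 in siMBD2 with a pileup of 136 and a siNC pileup of 448.

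The next runs were shorter. On chromosome 4, 10 missing peaks lay between 140202392 and 140452338, with pileups from 17 to 98 and no siMBD2 peak among them. The chromosome 6 run of 9 from 91986192 to 93746848 had a median pileup of 37. A run of 9 on chromosome 7 from 61119863 to 61382091 had a median pileup of 19 and 5 siMBD2 peaks among its members. The run of 9 on chromosome 16 from 35143371 to 46394197 crossed the centromere, whose place is general knowledge, and differed from the others, with a median pileup of 719 but a median fold of 1.57. The median pileup was thus below the list's median of 59 in 4 of the 5 runs and far above it in the fifth.

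The longest kept runs reached 31 peaks, and the 5 longest all had a median pileup above 59. The longest lay beside the centromere of chromosome 2, from 91998609 to 92325279, with a median pileup of 610 at a median fold of only 2.36. The second held 27 peaks on chromosome 6 from 133284119 to 135323721, at a median pileup of 170 and fold of 5.94. A run of 21 lay on chromosome 2 from 232537743 to 233200370, and runs of 19 lay on chromosome 7 from 129702755 to 130927717 and on chromosome 11 from 66153673 to 66936057. Their median pileups were 77, 82 and 93.

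The shares missing and added differed moderately between chromosomes. The share missing was lowest on chromosome 1 (32.3%, interval 30.8 to 33.9), with 32.8% on chromosomes 12 and 19, and highest on chromosome 13 (40.8%, 37.5 to 44.3), chromosome 18 (39.3%) and chromosome 8 (38.1%). The siNC median pileup was 68 on chromosome 1, 52 on chromosome 13 and 46 on chromosome 18, the lowest of the chromosomes. The share added went from 7.21% on chromosome 12 to 13.9% on chromosome 21 (interval 9.78 to 19). Chromosome 13 was high in both, with 12.2% added.

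**Figure D3:**
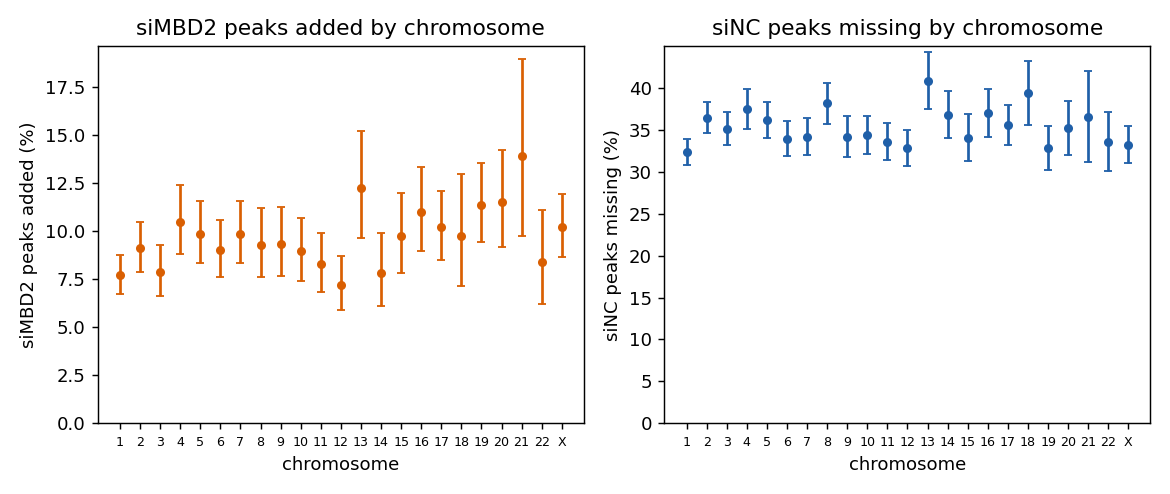
Share of siMBD2 peaks added (%, left) and of siNC peaks missing (%, right) on chromosomes 1 to 22 and X, with exact 95% intervals. Missing shares lie between 32.3% and 40.8% and added shares between 7.21% and 13.9%.

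Windows of 5 Mb with at least 20 siNC peaks gave a median of 34.8% missing over 569 windows, with the middle 50% of windows between 30.3% and 40%. The highest was the chromosome 15 window from 25 to 30 Mb, which holds the longest run, with 16 of 21 missing (76.2%, interval 52.8 to 91.8). It was followed by chromosome 7 from 55 to 60 Mb (60%), chromosome 17 from 80 to 85 Mb (56%), and chromosome 10 from 0 to 5 Mb and chromosome 18 from 50 to 55 Mb (55.2% each). The lowest were chromosome 9 from 65 to 70 Mb (13.9%), X from 0 to 5 Mb (15.6%), chromosome 1 from 75 to 80 Mb (19.6%), chromosome 4 from 85 to 90 Mb (20%) and chromosome 12 from 70 to 75 Mb (20.5%). Median siNC pileups were 24 to 52 in the 5 high windows and 45 to 110 in the 5 low ones. At the ends of the short arms, in the first 2 Mb, 18.6% of siMBD2 peaks were added (71 of 382, interval 14.8 to 22.9) against 9.16% elsewhere, with median pileups of 16 and 21. There 39.1% of siNC peaks were missing (34.8 to 43.5) against 34.9% elsewhere.

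Some siNC peaks of high fold had no siMBD2 peak within 1 kb. The highest by siNC fold were chr18:66514545-66514905 (fold 17.2, pileup 67) and chr4:188892033-188892352 (fold 16.5, pileup 74). Both of these were called in the other 4 knockdown lists, which are compared with the same siNC list. Then followed chr13:108974582-108974903 (fold 14.4), chr2:75468876-75469217 (14), chr1:159167714-159168104 (13.5), chr11:18431973-18432321 (13.2) and chr11:80948207-80948510 (13.1). The last 3 were chr2:138224837-138225253 (12.6), chr14:101367221-101367502 (12.4) and chr12:43030667-43030992 (12.2). The chromosome 12 peak was also called in the other 4 knockdown lists. The siCHD5 list held all 10, and chr13:108974582-108974903 was called in that list alone of the 4. The pileups of the 10 were 48 to 75, around the siNC list's median of 59 and above the median of 31 at missing peaks. In the quintiles that span these pileups, 52.6%, 26.7% and 10.6% of all siNC peaks were missing. The backgrounds of the 10 were 2.96 to 4.62, below the median of 6.04 at missing peaks and close to the list's lowest, 2.96.

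The few missing peaks of the very highest pileup were of another kind, with low folds. Among the 194 missing peaks of the strongest pileup quintile, 16 lay on chromosome 16 between 46 and 47 Mb, next to the centromere. The highest was chr16:46391335-46391609, with 1287 fragments over a background of 984 and a fold of only 1.31. Most of the 194 were not like this: 25 had a fold under 2 and 36 had one under 3. Their median fold was 5.30, against 4.44 at all missing peaks.

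The added peaks of highest siMBD2 fold had pileups from 18 to 51, above those of the typical added peak, whose median was 8. The highest was chr2:30936940-30937210, with a fold of 14.3 and a pileup of 24, and it lay 2.15 kb from a siNC peak. Next came chr9:88313282-88313611 (fold 12.5), chr2:137494792-137495003 (12.2) and chr2:226535002-226535396 (12.0). The peak chr6:74230368-74230943 had the largest pileup of these, 51, at a fold of 11.7, and lay 1.16 kb from a siNC peak. The others were chr3:171256336-171256559 (11.2), chr12:49284518-49284795 (10.9), chr2:109744450-109744738 (10.6), chr2:67461598-67461892 (10.5) and chr2:131320619-131320952 (10.4). Of the 10, 6 lay on chromosome 2, which held 178 of all 2426 added peaks. Each of the 10 was also called in at least 1 of the other 4 knockdown lists, so none was particular to siMBD2. The peaks chr6:74230368-74230943, chr12:49284518-49284795 and chr2:109744450-109744738 were called in all 4.

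Known CTCF loci lacked siNC peaks at about the rate of the whole list. Windows around 23 loci were taken from general knowledge of hg19 gene positions, without an annotation of that build, and held 268 siMBD2 peaks, 41 of them added (15.3%, against 9.30% in the whole list), and 340 siNC peaks, 116 of them missing (34.1%, against 34.9%). The DXZ4 repeat alone gave 15 of the 41 added peaks and the MHC 11. The share missing was 8.57% at DXZ4 and 27.8% in the MHC. It was 47.4% at the clustered protocadherins and 58.3% around MYC. The windows include those of the NuRD genes MBD2, MBD3 and CHD4.

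The HOX clusters, which encode the homeodomain factors of body patterning and are divided by CTCF sites into active and silent parts, held 16 siMBD2 peaks, 4 of them added, and 29 siNC peaks, 17 of them missing. In the whole lists 9.30% were added and 34.9% missing. The share missing was 44.4% in HOXA, 63.6% in HOXB and 66.7% in both HOXC and HOXD. HOXA kept 5 of 9 siNC peaks, and the 4 missing ones had pileups of only 16 to 20. HOXB kept 4 of 11, and its 7 missing peaks had pileups of 37 to 45, above the 28 and 30 of 2 that were kept. In HOXC the siMBD2 list held 4 peaks, 3 of them added, and the siNC list 3, 2 of them missing with pileups of 56 and 60. HOXD kept its 2 strongest peaks of 6, chr2:177065673-177066111 with a pileup of 114 in siMBD2 and 336 in siNC, and chr2:176991753-176992112 with 45 in siMBD2 and 156 in siNC. The missing ones there had pileups of 12 to 40.

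In the windows of imprinted loci, where CTCF can bind the parental alleles differently, 22 siMBD2 peaks included 1 added, and 29 siNC peaks included 9 missing. The lists do not tell alleles apart, and the SNRPN window does not take in the chromosome 15 run of missing peaks. The shares in the whole lists were 9.30% added and 34.9% missing. The H19 and IGF2 window, where CTCF binds the unmethylated control region and insulates IGF2, had 7 siMBD2 peaks and 11 siNC peaks, 5 of them missing. Among the missing were the neighbours chr11:2021079-2021278 and chr11:2023755-2024332, with siNC pileups of 20 and 21, and chr11:1974806-1975072 with 78. The 3 GNAS peaks were all kept. The DLK1 and MEG3 window kept 3 of 5 peaks and lacked chr14:101367221-101367502, one of the 10 strongest missing peaks by fold. The KCNQ1 and CDKN1C window kept 7 of 9.

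The clustered protocadherins, cell adhesion genes whose promoters are chosen through CTCF loops, had no added peak among 20 in siMBD2, and 18 of 38 siNC peaks missing. That share missing was 47.4%, against 34.9% in the whole siNC list. The missing ones had pileups of 20 to 57 and the kept ones of 20 to 172. The MYC window kept 5 of 12 (58.3% missing) and had no added peak. Its strongest siMBD2 peak, chr8:128737952-128738362, had a fold of 15.4 in siMBD2 and 6.84 in siNC, while chr8:128752658-128753148, with a siNC pileup of 73, was missing. The major histone cluster had 15 of 42 siNC peaks missing (35.7%). FIRRE, a long noncoding RNA gene on X with its own row of CTCF sites, had 6 of 24 missing (25%). The MHC had 11 added of 64 siMBD2 peaks, where the whole list had 9.30% added, and 20 missing of 72 siNC peaks (27.8%).

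Peaks near the gene that was targeted were few. The MBD2 window held 2 siMBD2 peaks and 3 siNC peaks, with none added and 1 missing, chr18:51796794-51797038. At chr18:51654166-51654546 the fold was 5.37 in siMBD2 and 11.7 in siNC, with pileups of 11 and 65. The MBD3 window held 2 added of 3 siMBD2 peaks and 1 missing of 2 siNC peaks. The CHD4 window held 1 added of 8 and 4 missing of 11 (36.4%). The shares in the whole lists were 9.30% added and 34.9% missing.

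Peak heights at strong shared sites differed between the lists by a similar ratio. Over the 7052 kept siNC peaks of the strongest quintile, the log2 ratio of siMBD2 to siNC pileup had a median of -1.90, a linear ratio of 0.267. Of them, 6995 (99.2%) lay within 1 log2 unit of that median, 33 lay above and 24 below. The 194 missing peaks of the quintile have no siMBD2 pileup and are left out, which can cut the low end of this spread. The use of this quintile and of its median as the point of comparison was chosen after the values were seen. The log2 values that follow are relative to the median, so that 0 is the typical strong peak.

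Of the 5 peaks furthest above it, 4 also had a background far above the typical one. At chr5:93018587-93019521 the pileup was 512 in siMBD2 and 475 in siNC (relative log2 ratio 2.01), and the background was 58.9 in siMBD2 and 43.0 in siNC. At chr14:66479459-66480262 the relative ratio was 1.86 and at chr11:16996262-16996590 it was 1.68, with relative background ratios of 3.04 and 3.05. Of the 33 peaks, 13 also had a background over 1 log2 unit above the typical one. The part of background in these ratios was not tested. The 3 peaks named were also high in siMBD3, set against the same siNC list and relative to its own median. There the relative log2 ratio was 2.02 at the chromosome 14 peak, 1.77 at the chromosome 11 peak and over 1 at the chromosome 5 peak. Over these 3 peaks it was 0.618 to 0.998 in siCHD3, 0.75 to 1.01 in siCHD4 and 0.327 to 0.519 in siCHD5. The part of the shared siNC list was not tested. The furthest below were chr2:92324890-92325279, with pileups of 96 in siMBD2 and 2705 in siNC (relative ratio -2.91), and chr4:88813007-88815049, with 21 in siMBD2 and 462 in siNC (-2.56).

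A regular departure was a row of peaks in DXZ4, a macrosatellite repeat on the X chromosome that binds CTCF on the inactive X, where its copies are unmethylated, and forms the boundary of the inactive X's large domains. At 14 kept peaks with a siNC pileup of at least 300 between 114960402 and 114999584, spaced a median of 2986 bp apart (2972 to 3007), the siMBD2 pileup was 170 to 201 and the siNC pileup 325 to 371. Pileups at these peaks were thus lower in siMBD2, but the relative log2 ratio was 0.84 to 1.15 with a median of 1.01. Their siMBD2 to siNC pileup ratio was a median of 2.02 times that of the typical strong peak. Their background did not share this: its relative ratio was -0.59 to 0.28, with a median of -0.19. The fold was accordingly 21.1 to 35.1 in siMBD2 and 6.97 to 11.2 in siNC, and 7 of the 10 siMBD2 peaks of highest fold lay in this array.

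**Figure D4:**
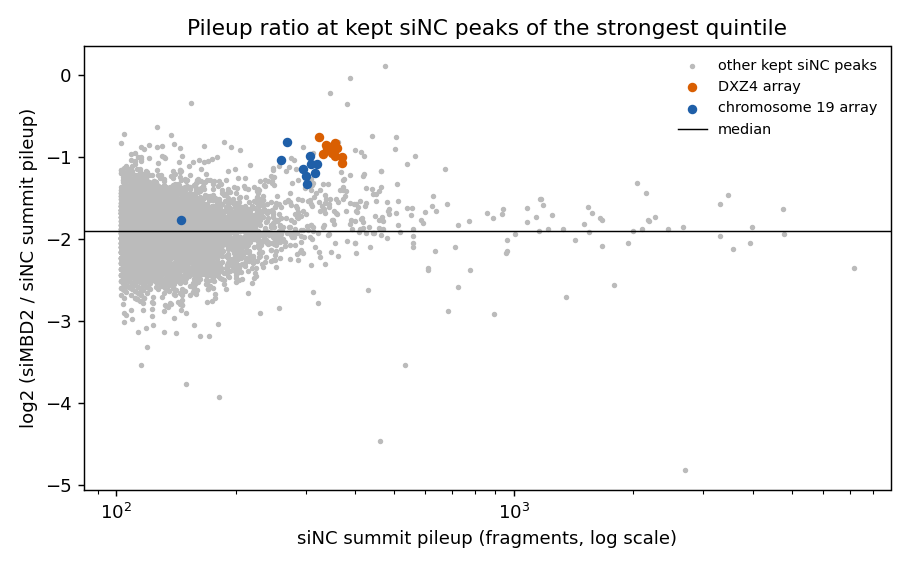
Log2 ratio of siMBD2 to siNC summit pileup (y) against siNC summit pileup (x, log scale) for the 7052 kept peaks of the strongest siNC quintile. The line is the median, -1.90. The 14 DXZ4 array peaks lie 0.84 to 1.15 above it, and the chromosome 19 array peaks lie 0.14 to 1.08 above it.

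A second array behaved in a similar way. On chromosome 19, 10 kept peaks with a siNC pileup of at least 100 between 50595798 and 50637449, spaced a median of 5335 bp apart, had a median pileup of 135.5 in siMBD2 and 302 in siNC. Their relative log2 ratio was 0.14 to 1.08 with a median of 0.79, and the relative background ratio had a median of -0.01. Both arrays were singled out after their values were seen. Near-identical copies share reads, so that these pileups cannot be assigned to single copies.

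The other knockdown lists, each set against the same siNC list and each relative to its own median over strong kept peaks, gave median values at the 14 DXZ4 peaks of 1.64 in siCHD3, 0.94 in siCHD4, 0.39 in siCHD5 and 1.28 in siMBD3, beside 1.01 in siMBD2. At the chromosome 19 array they were 1.36 in siCHD3, 0.87 in siCHD4, 0.25 in siCHD5 and 0.84 in siMBD3, beside 0.79 in siMBD2. At both arrays the median ratio of knockdown to siNC pileup was thus above that of the typical strong peak in all 5 knockdown lists. As they share siNC, the part of the siNC list in these values cannot be told apart from that of the knockdowns.

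DXZ4 was also where added peaks gathered. Added peaks lay mostly alone: 2142 of 2259 groups, joined where added peaks were within 20 kb, were single peaks, and 8 groups held 5 or more. The largest held 14 added peaks, at chrX:114968373-115003849, a stretch with 27 siMBD2 peaks and 13 siNC peaks. The whole DXZ4 window had 47 siMBD2 peaks, 15 of them added, and 35 siNC peaks, 3 of them missing (8.57%). The shares in the whole lists were 9.30% added and 34.9% missing. The added ones at DXZ4 were low, with folds of 2.92 to 5.08 and pileups of 9 to 15, and stood 236 to 1008 bp from the nearest siNC peak. Of the 15, 13 lay among the tall peaks of the array, and chrX:115003462-115003849 and chrX:115075386-115075609 lay beyond them. The other lists held 47 peaks there in siCHD3, 49 in siCHD4, 44 in siCHD5 and 31 in siMBD3.

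**Figure D5:**
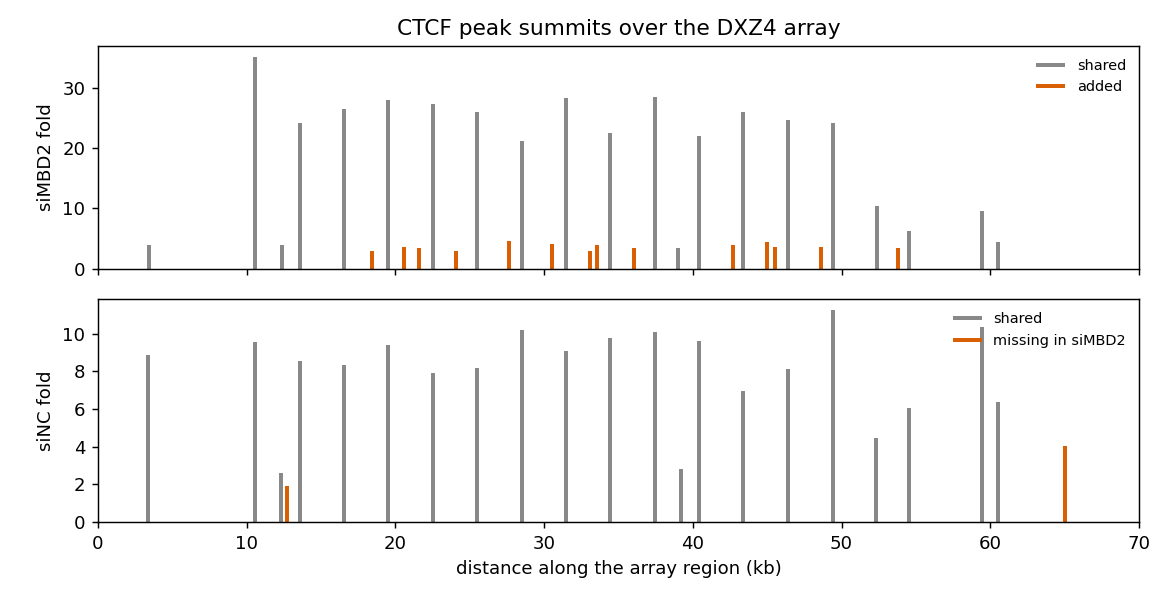
Fold at the summit of each CTCF peak in a 70 kb stretch of the DXZ4 window, siMBD2 above siNC, against distance along the stretch (kb); the fold axes differ in scale. Tall peaks recur about every 3 kb in both lists, reaching a fold of 35.1 in siMBD2 and 11.2 in siNC, and the added siMBD2 peaks in the stretch have low folds.

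In the other groups named here the added peaks had folds between 3.17 and 7.75. On chromosome 1 from 148256681 to 148320678, 7 added peaks stood beside 1 siNC peak, with folds of 3.31 to 7.75. On chromosome 4 from 9215284 to 9261690, 7 of 8 siMBD2 peaks were added, with a largest fold of 4.99. A group at the chromosome 19 array held 7 added peaks from 50619969 to 50641178, with a median spacing of 3277 bp between their summits. It ran past the array's end at 50637449, and the array itself held 8 added peaks. The last of the 5, on chromosome 4 from 9327363 to 9368603, held 5 added peaks of fold 4.30 to 6.08.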

How the data were processed

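CTCF immunoprecipitates and inputs of HEK293T cells were sequenced by the authors. The submitters' processing notes name MACS2 2.1.2, Bowtie2 2.3.4, deepTools 3.5.0, bedtools 2.25.0, FastQC 0.11.7 and SAMtools 1.9 and the hg19 build. Settings, filters and the peak threshold are not given in the sources used here. Deposited by the authors was 1 narrow-peak list per condition with 3 replicates called together, which gives each peak's fold, a ratio over local background, and the −log10 of p and of q; the deposited score and summit offset columns were read, and the score was not used. Fold and q are the authors' own for each peak. The lowest recovered background stands in for depth, since reads per sample were not analysed here.

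Overlaps were computed with Python 3.11.15, numpy 2.4.6, scipy 1.17.1 and pandas 2.3.3. Pileup and background were solved from fold, taken as pileup plus 1 over background plus 1, and a Poisson upper tail p; a whole-number pileup matched within 0.01% for 99.98% of siMBD2 and 99.89% of siNC peaks. Intervals are exact at 95% and, as each condition has 1 pooled list, cover counting error of peaks only. The overlap count and the pileup solution were tested on simulated data. Alternatives were −log10 q of at least 10, summits within 100 bp, reciprocal overlap of 50%, equal lengths, any peak within 1 kb, peaks over 1 kb left out, and weights for the likelihood of a call. Named peaks are the 10 strongest missing and added by fold, the 5 strongest kept, the 5 extremes of width, runs, windows and added groups, and the peaks at the overlap boundary; other regions named were chosen after their values were seen. The members, lists and loci were chosen with earlier results of these data known. For 22 locus genes the chromosome was looked up by name in a RefSeq table of another build, and all 22 matched. Sequences and gene annotation of hg19 were not used here.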

Additional observations from a re-analysis of the deposited data

Results flagged for a closer look

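Peaks outside chromosomes 1 to 22 and X entered no comparison above. On unplaced, random and haplotype contigs the siMBD2 list held 572 peaks (2.14% of its peaks) and the siNC list 552 (1.50%). The contigs of other MHC haplotypes held 364 siMBD2 peaks and 344 siNC peaks, and 1 random contig of chromosome 9 held 87 siMBD2 peaks and 72 siNC peaks. They are listed here as signal in data that the comparisons leave out. How the authors treated reads that map to several places is not given in the sources used here.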

How the results depend on the processing

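The share of siMBD2 peaks added was 9.30% and became 2.48% with −log10 q of 10 or more in both lists, 1.16% with it in siMBD2 only, 12.6% with reciprocal overlap of 50%, 11.2% with summits within 100 bp, 8.66% for no peak within 1 kb, 19.5% with lists of equal length and 9.93% without peaks over 1 kb. The share of siNC peaks missing was 34.9% and became, in the same order (q in siNC only), 50.7%, 23.1%, 37.1%, 36.1%, 33.7%, 19.8% and, without peaks over 1 kb, 35.1%; weights for the likelihood of a call gave 24.6%. Among isolated siNC peaks it was 40.4%, with 59.8% and 28.2% under the 2 q settings, 24.2% at equal length and 30.7% weighted. Among close peaks it was 35.8%, with 48.3% and 21.6% under the q settings, 39.2% with reciprocal overlap, 38.1% with summits, 30.5% within 1 kb, 18.1% at equal length and 24.1% weighted. The next peak was missing for 36.8% of missing peaks, and for 53.2% and 24.4% under the q settings, 39.0% with reciprocal overlap, 38.0% with summits, 21.1% at equal length and 25.7% weighted. The cause of these changes was not tested, apart from the q settings and equal length, which by construction drop weak peaks from 1 or both lists. For the 20 named missing and added peaks the overlap and q settings could not change the class, since they were chosen with no partner within 1 kb and all have a −log10 q above 10. No paired analysis was possible because replicates were pooled by the authors before peaks were called, and for the same reason no replicate could be left out. The lowest background, which only stands in for depth, was 0.640 fragments in siMBD2 and 2.96 in siNC, and the absence of a low siNC peak from the siMBD2 list is not shown to be an absence of binding.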
